A study of Mus musculus with 2 samples.

Results

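Mir322, Mir503, Mir351, Mir542 and Mir450b are miRNA genes that lie close together on the X chromosome of the mouse. They were found by matching gene IDs in the count tables to GENCODE M21 names, and all 5 were present among the 2202 miRNA genes. The tables come from microRNA-seq, in which RNA pieces below 30 nt were sequenced, here from total RNA of whole heart tissue. The study has 1 group of 2 hearts, from female B6CASTF1/J animals at an age of 10 days. This strain is a cross of C57BL/6J with CAST/EiJ. No treatment is named, and the hearts, labelled biological replicates 1 and 2, are separate biosamples. No contrast between conditions exists, so the values below describe the level of each gene and how far the hearts differed.

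A miRNA is cut from a hairpin precursor and guides silencing complexes to messenger RNAs, which it recognises mainly through its seed, bases 2 to 8 from the 5′ end. Genes of this cluster are known from skeletal muscle differentiation and from cell cycle control: miR-322, the mouse counterpart of human miR-424, and miR-503 belong to the wider miR-15/16 group, whose known targets include cyclins and the phosphatase Cdc25a. miR-351 carries the seed of miR-125, and miR-542 and miR-450b belong to neither group.

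The mature forms of the 5 genes are shown because their seeds decide which other miRNAs each can be compared with. RefSeq (GRCm38.p6) gives these 5′ arms, with the seed in capitals, and the 3′ arm too for Mir542 and Mir450b.
mmu-miR-322-5p: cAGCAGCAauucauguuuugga
mmu-miR-503-5p: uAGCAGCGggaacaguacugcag
mmu-miR-351-5p: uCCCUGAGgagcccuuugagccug
mmu-miR-542-5p: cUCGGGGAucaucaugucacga
mmu-miR-542-3p: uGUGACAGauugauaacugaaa
mmu-miR-450b-5p: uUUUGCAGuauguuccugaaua
mmu-miR-450b-3p: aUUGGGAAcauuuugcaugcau
The seeds of miR-322-5p and miR-503-5p match at 6 of 7 bases, and after base 8 the sequences match at 5 of 14 positions. The seed of miR-322-5p is the seed of miR-15, miR-16, miR-195a and miR-497a, and the seed of miR-351-5p is that of miR-125.

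Relatives with the seeds of miR-322-5p and miR-351-5p, and miR-450a-5p, whose seed is close to that of miR-450b-5p, are used for comparison below and read as follows, again with the seed in capitals.
mmu-miR-16-5p: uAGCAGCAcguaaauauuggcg
mmu-miR-15a-5p: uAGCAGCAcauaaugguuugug
mmu-miR-195a-5p: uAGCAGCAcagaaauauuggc
mmu-miR-125a-5p: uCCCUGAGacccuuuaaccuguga
mmu-miR-450a-5p: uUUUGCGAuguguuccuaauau
miR-322-5p matched miR-15a-5p at 15 of 22 positions read from the 5′ end without gaps, and miR-16-5p at 12 of 22. miR-351-5p matched miR-125a-5p at the first 8 bases and at 2 of the 16 positions after them. miR-450b-5p matched miR-450a-5p at 15 of 22 positions, but at 5 of the 7 seed bases.

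The whole hairpins of the first 2 genes show how both arms sit in the precursor. Capitals mark the mature arms, and the tables give 1 count per hairpin gene, so reads of the 5′ and 3′ arms are not told apart.
Mir322 hairpin: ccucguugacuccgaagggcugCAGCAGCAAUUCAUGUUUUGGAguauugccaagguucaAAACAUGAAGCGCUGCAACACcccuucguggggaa
Mir503 hairpin: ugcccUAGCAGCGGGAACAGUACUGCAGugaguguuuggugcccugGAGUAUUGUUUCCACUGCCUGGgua
The arms are separated by 16 nt in Mir322 and by 18 nt in Mir503.

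In mm10 coordinates and GENCODE M21 annotation, all 5 genes are on the minus strand of chromosome X, and no other annotated gene overlaps them. Mir322 (ENSMUSG00000065418.1) comes first in the direction of transcription, at chrX:53054255-53054349. Mir503 (ENSMUSG00000076122.1, chrX:53053984-53054054) follows after a gap of 200 nt, and Mir351 (ENSMUSG00000065503.1, chrX:53053255-53053353) after another 630 nt. Mir542 (ENSMUSG00000076140.1, chrX:53049403-53049487) lies 3767 nt further on, and Mir450b (ENSMUSG00000076050.1, chrX:53047997-53048078) is last. Between Mir542 and Mir450b lie 2 more miRNA genes, Mir450-2 and Mir450-1, so the cluster holds 7 genes in 6353 nt. The noncoding gene Gm28730 (chrX:53051194-53053159, a lincRNA) lies between Mir351 and Mir542 on the same strand. C430049B03Rik (chrX:53055046-53057190, a processed transcript) ends 696 nt before Mir322 on that strand, and the protein-coding gene Plac1 lies 15645 nt upstream of Mir322.

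Reads on named miRNA genes numbered 4260561 in replicate 1 and 4583025 in replicate 2, and levels are counts on the gene strand per 1000000 of these counts (CPM). Reads placed at more than 1 position, 38.9% and 38.0% of all reads, are not assigned to genes. The heart muscle genes Mir208a, Mir208b and Mir499 all reached at least 10 counts in each heart, with a summed level of 9644 CPM in replicate 1 and 6536 in replicate 2, while 5 of 6 neuronal genes (all 3 Mir124a genes, Mir9-1 and Mir9-2) were at 0 in both. Mir124a and Mir9 each have several gene copies, and a read that fits more than 1 copy is not assigned, so these zeros do not show absence. A count of 0 allows up to 3 assigned counts, or 0.704 CPM in replicate 1 and 0.655 in replicate 2. Intervals and such limits cover counting error only.

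Mir322 had 56223 counts in replicate 1 and 53420 in replicate 2. That was 13196 and 11656 CPM, or 12426 ± 1089 (SD, n = 2), the rank 15 and 19 among all miRNA genes. Its share of the counts was 1.32% in replicate 1 (exact Clopper-Pearson 95% interval 1.31 to 1.33) and 1.17% in replicate 2 (1.16 to 1.18). Both hearts were thus close in level, with replicate 1 higher.

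Mir503, separated from Mir322 by 200 nt and sharing its first 6 seed bases, had 2374 and 2035 counts. Its level was 557 CPM in replicate 1 and 444 CPM in replicate 2, or 501 ± 80.0 (SD, n = 2). In replicate 1 Mir322 exceeded Mir503 by 23.7-fold, and in the other heart by 26.3-fold. These 2 neighbours with similar seeds therefore stood far apart in level in both hearts.

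Mir351, the member with the miR-125 seed, had 29833 and 24015 counts. It stood at 7002 CPM in replicate 1 and 5240 CPM in replicate 2, or 6121 ± 1246 (SD, n = 2), with ranks 26 and 27. It was the second most abundant gene of the cluster in both hearts, and replicate 1 was again the higher one. Mir322 exceeded it 1.88-fold and 2.22-fold.

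Mir542, further downstream, had 6460 and 6722 counts, the rank 61 in each heart. Its level was 1516 and 1467 CPM, or 1491 ± 35.0 (SD, n = 2). Mir450b, the last gene, had 821 and 875 counts. Its level was 193 and 191 CPM, or 192 ± 1.26 (SD, n = 2). For these 2 downstream genes the coefficient of variation over the hearts was 2.35% and 0.655%, against 8.76% for Mir322, 16.0% for Mir503 and 20.4% for Mir351. It was 24.6% and 27.1% for Mir450-2 and Mir450-1, which are also downstream and had 27 to 37 counts.

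The order of levels was Mir322, Mir351, Mir542, Mir503 and Mir450b in both hearts. No neighbours in this order overlapped: the lower heart of each gene stood above the higher heart of the next. The order of levels differs from the order along the chromosome at Mir503, the second gene by position and the fourth by level. Mature forms of all 5 genes are 21 to 24 nt long, so counts were not scaled by length. Ratios between different sequences also hold differences in how well each is ligated and mapped, which was not tested.

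**Figure D1:**
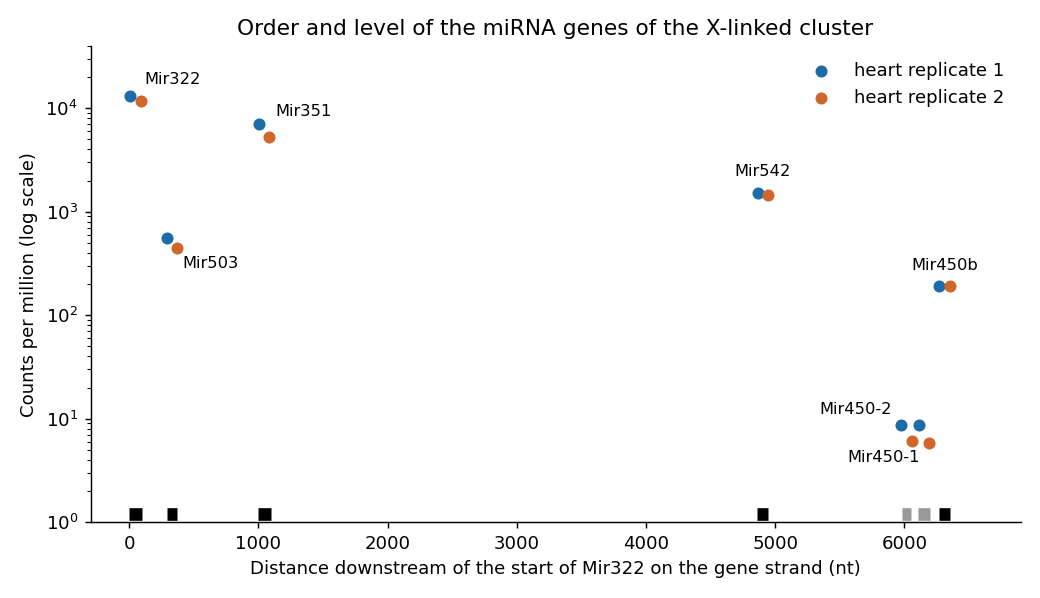
Each point is 1 gene in 1 heart, at its distance downstream of the start of Mir322 (x axis, nt) and its level in CPM (y axis, log scale); points of the 2 hearts are set slightly apart sideways, black boxes at the bottom mark the 5 members and grey boxes Mir450-2 and Mir450-1. The level dips from Mir322 (12426 CPM) to Mir503 (501 CPM) and is high again at Mir351 (6121 CPM), and the 2 grey genes lie lowest.

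The remaining 2 genes of the cluster, Mir450-2 and Mir450-1, were counted at 7.40 ± 1.82 and 7.29 ± 1.97 CPM (SD, n = 2). Mir450-2 had 37 and 28 counts, and Mir450-1 had 37 and 27. Both encode miR-450a-5p, shown above, and their hairpins share a run of 25 nt, so reads of that arm fit both genes. Reads that fit both are not assigned, so the levels of these 2 genes can be too low. The longest run that each of the 5 other genes shares with any miRNA hairpin in the tables was 11 nt for Mir542, 12 nt for Mir503, 13 nt for Mir322 and Mir351, and 19 nt for Mir450b (with Mir450-1). None of the 7 genes had a read on the opposite strand in either heart.

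Together the 5 members held 95711 counts in replicate 1 and 87067 in replicate 2. That was 2.25% (95% interval 2.23 to 2.26) and 1.90% (1.89 to 1.91) of the counts. Within this sum Mir322 made up 58.7% in replicate 1 and 61.4% in replicate 2, Mir351 31.2% and 27.6%, and Mir542 6.75% and 7.72%. Mir503 made up 2.48% and 2.34%, and Mir450b 0.858% and 1.01%. Mir322 and Mir351 thus accounted for most of the cluster's reads in each heart.

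The hearts were set against each other with an exact two-sided binomial test of each gene's counts, given library sizes scaled by trimmed means (TMM), with Benjamini-Hochberg adjustment over the 375 genes whose counts summed to at least 20. The test compares these 2 libraries and covers counting noise, not variation between animals. Of the 5 members, 3 were called, all higher in replicate 1, and 2 did not pass. Over all genes tested 55.2% were called, 29.1% as higher in replicate 1, so 3 of 5 called in either direction is near the background. The median log2 ratio of replicate 2 over replicate 1 was -0.11 over the members and -0.02 over all genes tested. The median size without regard to sign was 0.11 and 0.37, the latter over genes with as few as 20 summed counts.

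Mir351 was 1.28-fold higher in replicate 1 (log2 ratio -0.35, exact 95% interval -0.38 to -0.33, adjusted p = 5.20e-174). Mir503 had a log2 ratio of -0.26 (-0.35 to -0.18, adjusted p = 6.81e-09 by the exact binomial test), and Mir322 of -0.11 (-0.13 to -0.10, adjusted p = 1.99e-37 by the same exact test). Each of the 3 differences was smaller than the median size of 0.37 over all genes tested. That median includes genes with far fewer counts, whose ratios hold more counting noise. Genes of like abundance were not compared. For Mir542 the log2 ratio was 0.02 (-0.03 to 0.07, adjusted p = 0.584 by the exact test), and for Mir450b 0.05 (-0.09 to 0.19, adjusted p = 0.572 by the exact test). With total counts in place of TMM, the ratios of Mir542 and Mir450b were -0.05 and -0.01, neither past the threshold. DESeq2 size factors were exactly 1 for both libraries, so that setting compared the counts with no correction for depth; there Mir542 passed at 0.06 (adjusted p = 0.0445, exact test). The 3 genes at the start of the cluster were therefore the ones called higher in replicate 1. Downstream, Mir450-2 and Mir450-1 had log2 ratios of -0.43 (-1.20 to 0.31) and -0.49 (-1.27 to 0.26). At 27 to 37 counts neither passed the test, so the calls do not show a split by position.

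Some marker genes also differed between the hearts, and their part in these ratios was not tested. All 3 heart muscle genes were called higher in replicate 1. The endothelial gene Mir126a went from 86321 to 137860 CPM in replicate 2, the 2 smooth muscle genes Mir143 and Mir145a summed to 53735 and 35952 CPM, and the 4 blood genes (Mir451a, Mir144, Mir223 and Mir142) to 507 and 1020 CPM. Of these, Mir143 was called higher in replicate 1, and Mir126a, Mir451a, Mir144 and Mir142 in replicate 2. Mir145a and Mir223 did not pass. Over all genes tested, 55.2% were called in either direction. The liver gene Mir122 stood at 76.3 and 141 CPM and was called higher in replicate 2. The 2 skeletal muscle genes summed to 21.6 and 19.4 CPM, with neither of these 2 past the test. In bulk tissue, fewer cells of a type and less RNA per cell cannot be told apart.

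**Figure D2:**
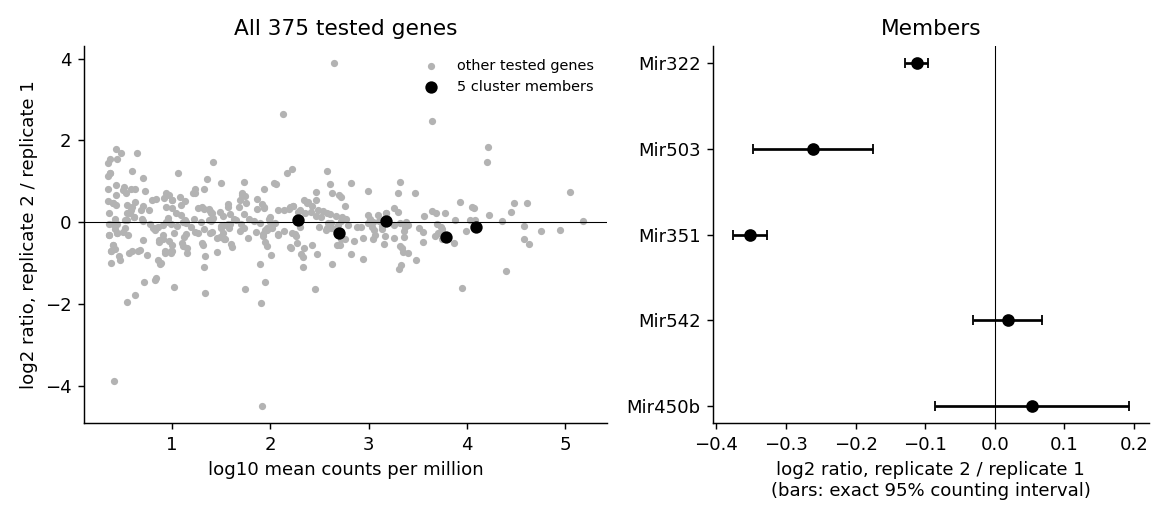
Left, the log2 ratio of replicate 2 over replicate 1 (y axis) against the log10 mean CPM (x axis) for the 375 genes tested, with the 5 members in black. Right, the same ratio for each member with its exact 95% counting interval: Mir351 lies at -0.35, and the intervals of Mir542 and Mir450b include 0.

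Ratios between members within a library do not depend on library size. Of the 10 pairs, 7 had exact 95% intervals that did not overlap between the hearts. The same share over pairs of other genes was not computed, and the 10 pairs come from only 5 genes. Of all single genes tested, 55.2% were called between the hearts, but by another measure. The count of 7 is therefore not read as a trait of the cluster. Mir351 over Mir450b moved most, from a log2 ratio of 5.18 (5.08 to 5.29) in replicate 1 to 4.78 (4.68 to 4.88) in replicate 2. Mir351 over Mir542 went from 2.21 (2.17 to 2.25) to 1.84 (1.80 to 1.88), and Mir322 over Mir351 from 0.91 (0.89 to 0.93) to 1.15 (1.13 to 1.18). Mir542 over Mir450b was 2.98 (2.87 to 3.08) and 2.94 (2.84 to 3.04). The intervals of this pair overlapped, as did those of Mir503 over Mir351 at -3.65 (-3.71 to -3.59) and -3.56 (-3.63 to -3.50). Those of Mir322 over Mir450b overlapped as well, at 6.10 (5.998 to 6.199) and 5.93 (5.84 to 6.03). Mir322 over Mir450b shifted by -0.17, further in size than Mir322 over Mir503 (0.15) and Mir322 over Mir542 (-0.13), whose intervals lay apart. The proportions of the members thus differed between the hearts by at most 0.40 on the log2 scale, against ratios of up to 6.10 between members.

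**Figure D3:**
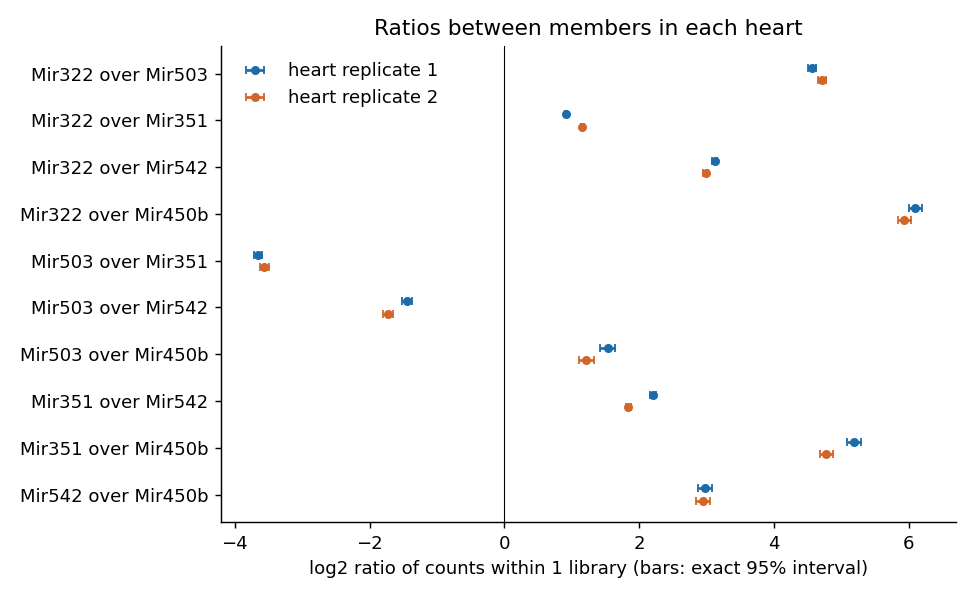
Each row is 1 of the 10 pairs of members, and each point the log2 ratio of their counts in 1 heart with its exact 95% interval (x axis). The pairs lie between -3.65 and 6.10, and the 2 hearts lie close together for each pair.

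Among genes with the seed bases AGCAGC (bases 2 to 7), Mir322 had the most assigned reads in both hearts. It held 63.2% (95% interval 62.9 to 63.6) of the counts of the listed family in replicate 1 and 40.9% (40.6 to 41.2) in replicate 2. Mir503 held 2.67% and 1.56%. These shares count whole hairpins, so they can include reads of 3′ arms, which in Mir322 and Mir503 lack the seed. Of the 11 other listed genes, 6 had enough counts to be tested, and 4 (Mir195b, Mir6342, Mir6353 and Mir6419) were at 0 in both hearts. The remaining gene, Mir497b, had 1 count in each heart; it lies opposite Mir497, and its mature form does not carry the seed. All 6 tested genes were called higher in replicate 2, with a median log2 ratio of 0.73. Of all 375 genes tested, 98 were called higher in replicate 2, and 55.2% were called in either direction. Mir322 and Mir503 were called higher in replicate 1.

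Mir195a, the next in mean level but below Mir15b and Mir15a in replicate 1, rose from 1424 CPM in replicate 1 to 7527 CPM in replicate 2 (log2 ratio 2.47, 2.43 to 2.51). Mir15b stood at 2315 and 3609 CPM and Mir15a at 1457 and 2735 CPM, with log2 ratios of 0.71 and 0.97. Mir497 stood at 761 and 1230 CPM, Mir16-1 at 952 and 1025 CPM and Mir16-2 at 201 and 268 CPM. By assigned reads, Mir322 thus exceeded each of these genes in each heart. With Mir195a left out, a choice made after seeing the data, Mir322 held 67.9% and 55.6% of the family. Mir16-1 and Mir16-2 share a run of 23 nt and the same miR-16-5p, and reads that fit both are not assigned. Their counts can therefore be too low, and the share of Mir322 too high.

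Mir351 held 39.4% (95% interval 39.0 to 39.7) of the counts of the genes with the miR-125 seed in replicate 1 and 28.7% (28.3 to 29.0) in replicate 2. This share too counts whole hairpins, and the 3′ arm of Mir351 lacks the seed. By assigned reads, Mir125a led this family at 10098 and 12438 CPM. Its log2 ratio was 0.37 (0.35 to 0.39), so that it was higher in replicate 2 while Mir351 was higher in replicate 1. Mir125b-1 was counted at 360 and 401 CPM and Mir125b-2 at 323 and 208 CPM. These 2 genes share a run of 24 nt and the same mature form, and reads that fit both are not assigned. The levels of miR-125b can therefore be too low, and the share of Mir351 too high. Mir6367 and Mir6394, which RefSeq gives the same seed, were at 0 in both hearts. For the seeds of miR-503-5p, miR-542-3p and miR-450b-5p, no other mature form in the RefSeq table had the same 7 bases. The seed of miR-542-5p also occurs in miR-6966-5p, whose gene Mir6966 was counted at 0.469 and 1.09 CPM, and that of miR-450b-3p in miR-6352 (0 in both hearts) and in the 3′ arm of Mir450-1.

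**Figure D4:**
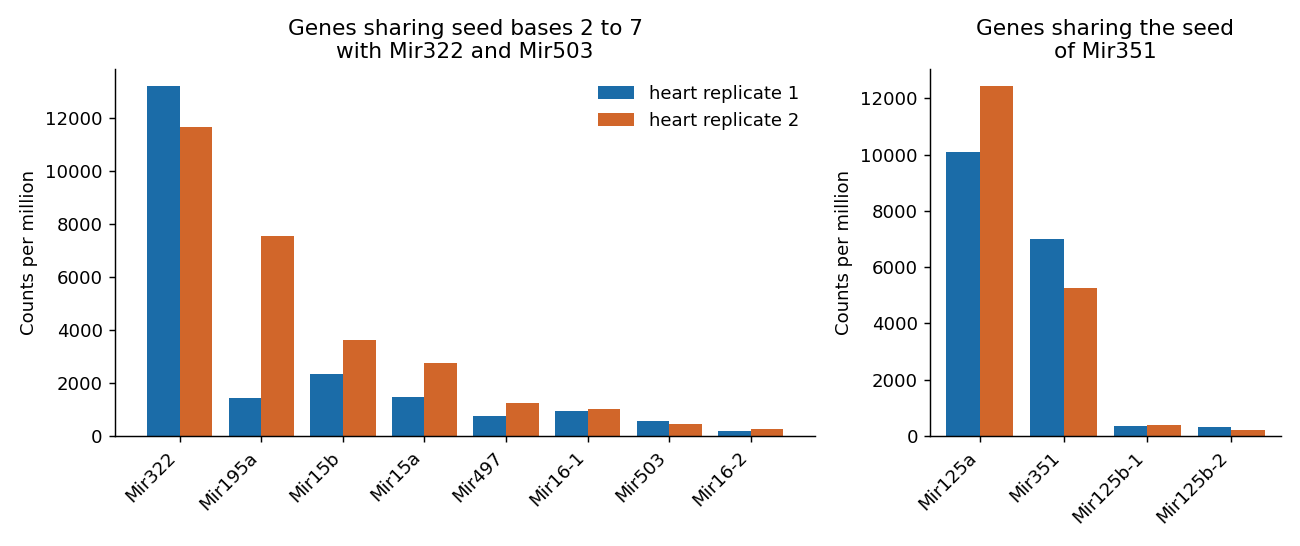
Bars give the CPM of each gene in each heart (y axis, from 0) for genes with seed bases 2 to 7 of Mir322 and Mir503 (left) and with the seed of Mir351 (right); listed genes under 1 CPM are not drawn. Mir322 has the tallest bars on the left at 13196 and 11656 CPM, and Mir195a differs most between the hearts.

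On the X chromosome the tables list 142 miRNA genes, of which 34 reached 10 counts in each heart and 91 had none in either. X-linked genes took 5.03% of all counts in replicate 1 and 4.32% in replicate 2. The 5 members made up 44.7% (95% interval 44.4 to 44.9) and 44.0% (43.7 to 44.2) of these. Mir322 was the leading X-linked gene in each heart, at 26.2% and 27.0% of the X-linked counts, and Mir351 followed Mir652. The leading genes outside the cluster were Mir652 (10760 ± 86.1 CPM), Mirlet7f-2 (5068 ± 795), Mir98 (2319 ± 491), Mir676 (1835 ± 402) and Mir361 (1828 ± 111). Of the 28 X-linked genes tested outside the cluster, 11 were called higher in replicate 1, 5 higher in replicate 2 and 12 did not pass, with a median log2 ratio of -0.07. Among all 375 genes tested, 55.2% were called in either direction, and for 29.1% the level in replicate 1 was the greater. Whether the X-linked split departs from these shares was not tested. With 1 count per gene, the 2 parental alleles of these female hybrids are not told apart. Whether CAST/EiJ reads were placed as well as C57BL/6J reads was not tested.

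**Figure D5:**
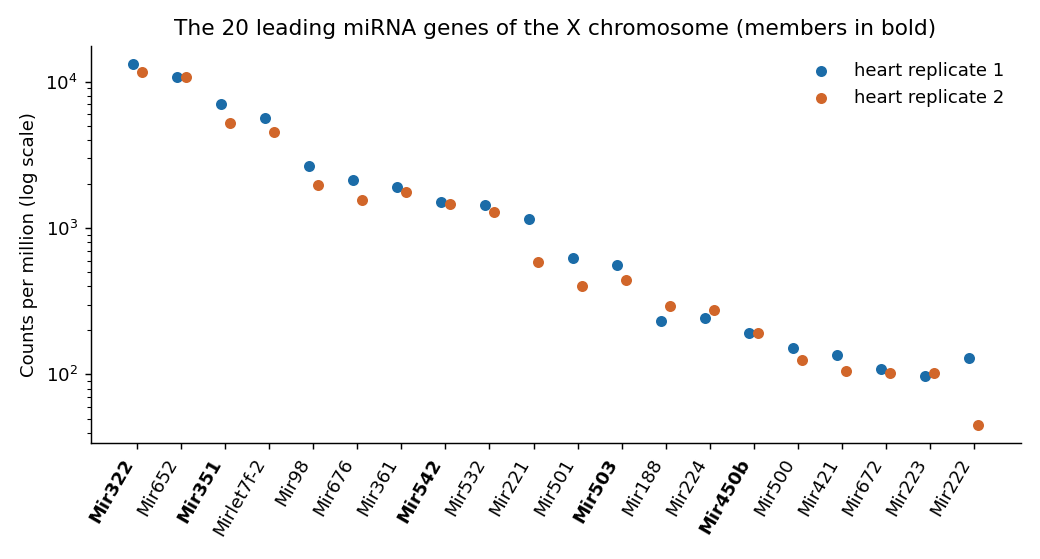
Points give the CPM (y axis, log scale) of the 20 leading miRNA genes of the X chromosome in each heart, in order of mean level, with cluster members in bold. Mir322 stands first and Mir351 just after Mir652, and all 5 members are among the 20.

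By level alone, the genes nearest to each member were found from log2(CPM + 1) over the 2 libraries, a measure with n = 2 that says only that levels were alike. Mirlet7e (12218 and 12118 CPM) and Mir652 were nearest to Mir322, and Mir100 (6538 and 4677 CPM) and Mir93 to Mir351. Mir541 (1499 and 1428 CPM) and Mir181b-2 were nearest to Mir542, Mir490 and Mir431 to Mir503, and Mirlet7a-2 and Mir350 to Mir450b.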

How the data were processed

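The authors deposited raw read counts per miRNA gene for each library, not normalized, on assembly mm10 with GENCODE annotation M21, per the file headers. Not given in the sources used here are the aligner and the counting program. Each table has 3 count columns (without strand, gene strand, opposite strand) and 4 category rows, which were left out of library sizes and made up 60.5% of the reads in replicate 1 and 55.1% in replicate 2. The gene-strand column was used. All 2202 IDs were matched to M21, and all 7 genes of the cluster to mature sequences from RefSeq (GRCm38.p6).

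CPM were computed over counts on named genes. TMM factors came from edgeR 4.0.16 in R 4.3.3, with a prior count of 0.5 in log2 ratios and an adjusted p threshold of 0.05. The exact binomial test was tested on simulated counts. Other tools were scipy 1.17.1, numpy 2.4.6, matplotlib 3.10.9 and pandas 2.3.3 under Python 3.11.15. Alternatives were size factors from DESeq2 1.42.0, total counts, the unstranded column, other denominators, count minimums and prior counts, and leaving out each replicate. Members, lists and the rule for named genes (the members, same-strand neighbours within 20 kb, both seed families, the 5 leading other X-linked genes and the 2 nearest in level) were chosen with earlier results of these data known.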

Additional observations from a re-analysis of the deposited data

How the results depend on the processing

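Of 127 values under alternatives, 40 leave out a replicate, which with 2 hearts cannot move a mean by more than 1 SD and so says nothing of stability. Of the other 87, 67 kept their value within 1 SD, their side of the threshold or, for counts of genes, a factor of 1.5, and 17 moved, all by the choice of denominator. Without strand, levels in CPM were 17640 for Mir322, 709 for Mir503, 8663 for Mir351, 2121 for Mir542 and 273 for Mir450b, and the 5 members held 2.94% of the counts, since genes with an opposite-strand partner lose reads and the total shrinks. Over all reads they were 5225, 210, 2560, 629 and 81.0 CPM in the same order, and 0.871%. Without the most abundant gene in the denominator, Mir322 stood at 14663, Mir503 at 591, Mir542 at 1760 and Mir450b at 226 CPM, and the share was 2.45%. The log2 ratios of Mir542 and Mir450b changed sign with total counts (-0.048 and -0.013), and Mir542 passed the test with DESeq2 size factors (0.057, adjusted p = 0.0445 by the exact binomial test, against 0.0953 to 0.740 under the other settings). Those factors were exactly 1 for both libraries, so this setting made no correction for depth. Mir322, Mir503 and Mir351 stayed below 0 and past the threshold under all 6 alternatives. No paired analysis was possible because the samples form a single group. Depth limits genes near 0.704 CPM.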

Other observations

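For comparison with other miRNA clusters, same-strand neighbours with gaps of 10 kb or less were grouped and groups with at least 4 tested genes kept, a choice made after seeing the data. There were 7 such groups. Of these 7, the Mir322 group had the highest summed level, at 20746 CPM. The group around Mir379 on chromosome 12 (9152 CPM) and the group of Mir17 on chromosome 14 (7023 CPM) followed. Groups with fewer tested genes were left out, and some stood higher. Mir143 alone, beside Mir145a, had a mean of 42774 CPM, and Mir23b alone, beside Mir27b, 40902 CPM. Its log2 ratios between the hearts spanned 0.54 over 7 genes, against 0.56 over 4 genes for the X-linked group of Mir92-2, 0.73 over 4 genes for the group of Mir17 and a median of 1.39 over the 7 groups. Its levels spanned 10.74 on the log2 scale, from Mir322 to Mir450-1, against a median of 7.81. The count of Mir450-1 can be too low because reads shared with Mir450-2 are not assigned, which would widen this span. A span grows with the number of genes and with low counts, and these differences were not tested.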
